A study of Mus musculus with 38 samples.

Results

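The region described here is the *Sox9* gene and the gene desert around it in the mouse, taken as every called interval within 1 Mb of either end of the *Sox9* gene body in 14 lists of histone marks. The lists held 1533 such intervals of 1006702 in all: 595 H3K4me1 domains and 262 H3K27ac peaks of skin, and 676 H3K4me1 domains of cultured cells. Of these, 15 lay on the *Sox9* coding sequence and are described apart, 189 lay within 2500 bp of an annotated transcription start site, and 1329 were distal and were followed from list to list.

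SOX9 is a transcription factor of the SRY family, whose HMG domain binds the minor groove of DNA and bends it. It maintains hair follicle stem cells in skin and is a master regulator of cartilage and of the testis. Its gene lies alone in a long stretch without other protein-coding genes that is known for enhancers acting over large distances, and changes in that stretch disturb skeletal and gonadal development in humans. H3K4me1 marks primed and active enhancers, and H3K27ac marks active enhancers and promoters.

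The skin samples were epidermal stem cells (EpdSCs) of K14rtTA; TRE-myc-Sox9 males, sorted from back skin by high CD49f (integrin α6) and high Ly6A, without CD34 and without markers of endothelium, blood, melanocytes and fibroblasts. In these animals the keratin 14 promoter drives the doxycycline-dependent activator rtTA in skin epithelium. Doxycycline (DOX) switches on a transgene that holds the MYC-tagged *Sox9* coding sequence, and ungrafted mice were given DOX from postnatal day 21. D0 cells carried both transgenes and had no DOX, while W1, W2, W6 and W12 cells had 1, 2, 6 and 12 weeks of it. W12 cells came from skin of newborn pups that was grafted onto Nude female hosts and healed for 21 days before DOX. Cultured cells, labelled K14rtTA; TRE-myc-Sox9varients, were EpdSCs transduced with lentiviruses for wild-type (WT) SOX9, without and with DOX, or, with DOX, for 1 of a pair of truncated forms, ΔHMG-SOX9 without the DNA-binding HMG domain and ΔTA-SOX9 without the transactivation domain. Chromatin was profiled by MINT-ChIP, in which barcoded samples are pooled before immunoprecipitation. Skin had 12 H3K4me1, 12 H3K27ac and 12 total H3 samples, and culture had 2 H3K4me1 samples. Labels of the culture samples give no condition, so culture conditions were read from the names of the lists. Every sample of skin and culture is labelled as a high or a low MNase (nuclease) digestion, and the names of the lists give neither.

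Each mark and time point or culture condition had 1 list, called on pooled replicates, so no difference between lists could be set against a spread between replicates and no test was made. Shares of the window that are set against the genome are given with exact 95% intervals (Clopper-Pearson), a measure of counting error alone. An interval missing from a list was not detected at that list's depth. W2 shares a library pool with W12, since replicate 1 of W2 was sequenced together with the W12 samples. All 6 markers of basal keratinocytes had an H3K27ac peak within 2500 bp of a start site in every skin list, and none of the 3 fibroblast markers had one in any list. Immune markers had none from D0 to W6 and 1 of 3 at W12 (*Cd207*, a marker of Langerhans cells), and endothelial markers had 1 of 2 from D0 to W6 (*Pecam1*) and both at W12. Melanocyte markers had between 1 and 2 of 4. Of 5 markers of hair follicle stem cells 2 had a peak at D0, W1 and W6, 4 at W2 and none at W12.

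*Sox9* (ENSMUSG00000000567) lies on the plus strand of chromosome 11, at 112782224 to 112787760 in the mm10 (GRCm38) build, with 3 exons. The nearest protein-coding gene upstream is *Kcnj2*, which encodes a potassium channel and ends 1705 kb away, outside the window. Downstream it is *Slc39a11*, which encodes a zinc transporter and whose 3′ end lies 457 kb from *Sox9*. Non-coding genes in between are *Gm11674*, *Gm11680* and *BC006965* upstream, the last starting 0.248 kb before *Sox9* on the opposite strand, and *Gm11681*, *4933434M16Rik*, *2610035D17Rik* and *4732490B19Rik* downstream. *Sstr2*, a somatostatin receptor, lies within the bounds of *Slc39a11* on the other strand. Further on the window holds *Cog1*, *Fam104a*, *D11Wsu47e*, *Cpsf4l*, *Cdc42ep4*, an effector of the GTPase CDC42, and one end of *Sdk2*, a cell adhesion gene.

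Distal H3K27ac peaks of the 5 skin lists joined into 105 regions, of which 41 were intergenic, 62 intronic and 2 reached an exon. At 3 or more time points 25 of them were called, and 4 were absent at D0 and called at W2, W6 and W12. The bases around the summits of these 4 are shown because they carry lasting gains in regions without any D0 peak. Each is given as 300 bases of the plus strand of mm10 around the summit in the list where the peak ranked best. Lasting W2 peaks 324 kb and 950 kb downstream stood in regions with a D0 peak, and their bases are not shown. Capitals mark matches, on either strand, to the words searched: for SOX factors ACAATG (with its longer form AACAATG, which contains it) or the variant ACAAAG, for AP1 the word TGANTCA, for RUNX factors TGTGGTT and for GATA factors AGATAA. The first is intergenic and 435 kb upstream (W6 summit), the second lies in an intron of *BC006965* 14.6 kb upstream (W2 summit), the third in an intron of *2610035D17Rik* 274.5 kb downstream (W12 summit) and the last in an intron of *Slc39a11* 492 kb downstream (W2 summit).
chr11:112346370-112346669: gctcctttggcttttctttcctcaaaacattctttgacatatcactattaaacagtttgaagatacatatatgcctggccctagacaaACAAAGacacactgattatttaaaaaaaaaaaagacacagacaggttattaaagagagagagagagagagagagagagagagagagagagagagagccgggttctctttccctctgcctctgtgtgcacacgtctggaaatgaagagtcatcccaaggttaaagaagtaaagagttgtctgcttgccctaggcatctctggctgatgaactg
chr11:112767571-112767870: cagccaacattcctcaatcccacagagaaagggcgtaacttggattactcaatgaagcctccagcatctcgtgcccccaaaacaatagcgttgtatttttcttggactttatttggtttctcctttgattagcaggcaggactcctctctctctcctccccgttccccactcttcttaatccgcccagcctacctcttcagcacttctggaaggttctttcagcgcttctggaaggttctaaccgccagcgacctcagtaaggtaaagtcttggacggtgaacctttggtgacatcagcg
chr11:113056657-113056956: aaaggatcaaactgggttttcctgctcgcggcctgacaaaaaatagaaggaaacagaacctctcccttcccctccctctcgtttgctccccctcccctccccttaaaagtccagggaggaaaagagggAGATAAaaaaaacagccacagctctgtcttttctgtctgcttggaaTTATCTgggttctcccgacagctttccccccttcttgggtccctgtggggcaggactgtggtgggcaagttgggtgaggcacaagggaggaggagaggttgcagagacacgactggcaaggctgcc
chr11:113273714-113274013: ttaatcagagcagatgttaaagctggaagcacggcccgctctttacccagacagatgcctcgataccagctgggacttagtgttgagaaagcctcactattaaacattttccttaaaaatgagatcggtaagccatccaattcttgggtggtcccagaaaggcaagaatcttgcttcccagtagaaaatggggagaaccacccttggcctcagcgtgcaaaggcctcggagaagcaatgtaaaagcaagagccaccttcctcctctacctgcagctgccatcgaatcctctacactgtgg

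The first of these holds 1 match to ACAAAG, 62 bases before the summit, and a run of GA repeats, with 39.7% of its bases masked as repeats in the reference. The third holds 2 matches to AGATAA, and the second and the last hold none of the words searched.

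For comparison, 4 regions that were called at D0 and again at later time points are shown, chosen by no stated rule. They are the intergenic regions 166.6 kb (D0 summit) and 149.8 kb upstream (W2 summit), and those in introns of *2610035D17Rik* 321 kb (W12 summit) and 410 kb downstream (W1 summit).
chr11:112615156-112615455: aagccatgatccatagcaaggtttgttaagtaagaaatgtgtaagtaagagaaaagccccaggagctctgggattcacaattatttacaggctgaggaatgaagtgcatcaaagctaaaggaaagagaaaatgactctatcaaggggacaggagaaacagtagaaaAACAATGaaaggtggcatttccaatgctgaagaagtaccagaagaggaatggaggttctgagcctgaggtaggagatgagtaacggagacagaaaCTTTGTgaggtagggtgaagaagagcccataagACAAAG
chr11:112631529-112631828: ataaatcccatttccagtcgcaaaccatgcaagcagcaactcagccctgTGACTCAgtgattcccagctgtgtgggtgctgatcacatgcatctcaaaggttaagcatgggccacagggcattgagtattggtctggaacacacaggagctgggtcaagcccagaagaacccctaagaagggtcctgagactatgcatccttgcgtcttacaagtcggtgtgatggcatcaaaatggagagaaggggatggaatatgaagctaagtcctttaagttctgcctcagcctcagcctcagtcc
chr11:113101270-113101569: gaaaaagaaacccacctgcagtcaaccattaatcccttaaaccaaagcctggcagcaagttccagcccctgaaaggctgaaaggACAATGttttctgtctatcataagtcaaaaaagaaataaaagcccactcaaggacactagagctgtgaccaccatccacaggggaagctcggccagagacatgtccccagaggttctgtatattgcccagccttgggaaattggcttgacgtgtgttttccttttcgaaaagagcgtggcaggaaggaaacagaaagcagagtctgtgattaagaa
chr11:113191865-113192164: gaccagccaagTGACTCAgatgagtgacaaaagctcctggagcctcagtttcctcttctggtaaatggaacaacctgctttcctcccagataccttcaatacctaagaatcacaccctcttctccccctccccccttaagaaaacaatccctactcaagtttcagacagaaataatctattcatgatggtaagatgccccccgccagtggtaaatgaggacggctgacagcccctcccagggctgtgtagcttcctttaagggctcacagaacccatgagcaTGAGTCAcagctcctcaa

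The region 166.6 kb upstream holds an AACAATG match 16 bases from its D0 summit and 2 matches to ACAAAG. The regions 149.8 kb upstream and 410 kb downstream hold 1 and 2 matches to the AP1 word, and that 321 kb downstream 1 match to ACAATG. At 410 kb the bases shown lie outside the D0 peak (113192445 to 113193190), so these 2 matches are not within it. Of the other regions called at all 5 time points, that 162 kb upstream held 1 match to the AP1 word. Those at 479 kb, 503 kb, 778 kb and 951 kb downstream held none of the words. Of the 25 regions called at 3 or more time points, 6 held ACAATG or ACAAAG (24%, interval 9.36 to 45.1%) and 4 TGANTCA (16%, 4.54 to 36.1%). The RUNX word was in 1 of them (4%, 0.101 to 20.4%) and the GATA word in 2 (8%, 0.984 to 26%). The 4 regions shown for comparison each hold a word, which does not hold for all 25. Over the same 300 bases of all 105 regions, 31 held at least 1 ACAATG or ACAAAG (29.5%, interval 21 to 39.2%), against between 34.3% and 37.0% of all distal peaks in the 5 lists. AACAATG stood in 4 regions (3.81%, 1.05 to 9.47%, against 4.02% to 5.32%) and TGANTCA in 13 (12.4%, 6.76 to 20.2%, against 10.7% to 11.8%). The RUNX word was in 7 (6.67%, 2.72 to 13.3%, against 6.38% to 6.87%) and the GATA word in 9 (8.57%, 4.0 to 15.7%, against 14.1% to 15.4%). The genome's range lay inside the interval for each of these words. These shares are descriptions of letters in a window and show no binding.

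**Figure D1:**
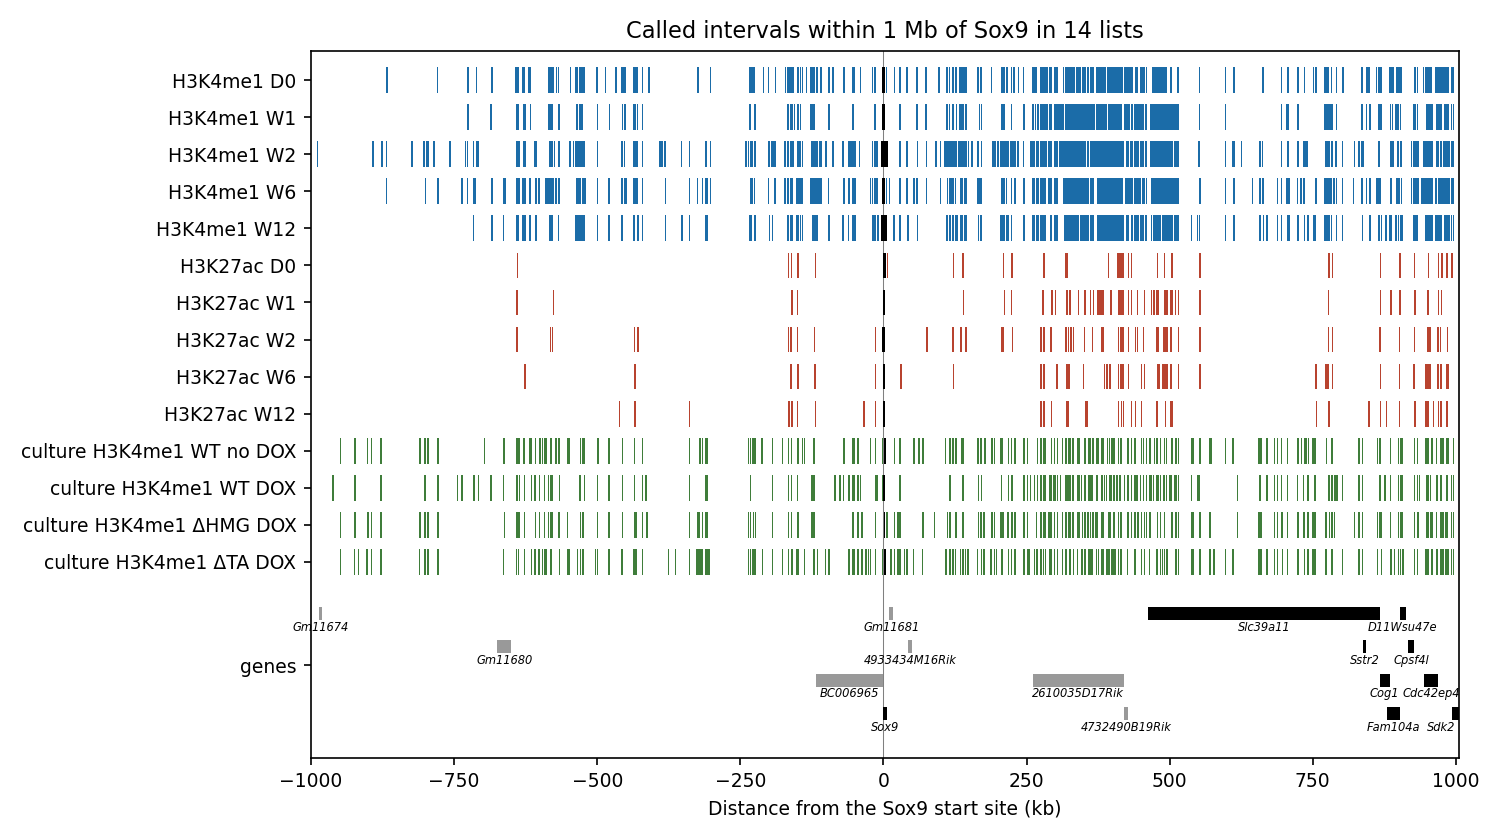
Called intervals around Sox9. The x axis is the distance from the Sox9 start site in kb and each row is 1 list (blue skin H3K4me1, red skin H3K27ac, green culture H3K4me1, black intervals on the Sox9 coding sequence), with bars drawn at least 2.5 kb wide. Genes are at the bottom, protein-coding in black and non-coding in grey. Intervals crowd over 2610035D17Rik and the 3′ part of Slc39a11 in each list and are sparser in the 1 Mb upstream.

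On the *Sox9* gene itself, every H3K27ac list had a peak, and its summit lay in a coding exon each time. At D0 there were 2 peaks, of 14.7-fold over background (21 reads piled up at the summit, 95% Poisson interval 13 to 32.1) and 4.67-fold (6 reads). Each later list had a single peak on the coding sequence: W1 with 28.5-fold (36 reads, interval 25.2 to 49.8), W2 with 24.6-fold (34 reads, 23.6 to 47.5), W6 with 25.7-fold (42 reads, 30.3 to 56.8) and W12 with 9.92-fold (13 reads, 6.92 to 22.2). The highest of these folds, at W1, was the 31st best-scoring peak of 32544, and the main peak at D0 ranked 4179 of 30268. The fold is thus lowest at W12 and at D0 and highest at W1, W2 and W6.

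The transgene holds the same coding exons, so reads on them cannot be assigned to the endogenous gene or to the transgene. The last base of the stop codon is 112785510, and the peaks of W1, W2 and W6 ended 7, 6 and 8 bp before it, while that of W12 ended 611 bp before it. At D0 the stronger peak ended 1123 bp before it and the weaker one, of 6 reads, 4 bp before it. No H3K27ac peak covered any base of the remaining 3′ part of the last exon, which a coding-sequence transgene lacks. The introns, which a coding sequence lacks too, were covered by these peaks. H3K27ac covered the first intron fully in every list, and the second to 53.4% at D0 and fully from W1 to W12. The part of the gene and of the transgene in these peaks was not tested. Among all H3K27ac peaks that covered an annotated stop codon or came within 10 bp of one, between 2.21% and 5.03% of a list ended within 10 bp of one.

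In culture the domains on the coding sequence ended 1 bp past the stop codon without DOX, and 23 bp and 1 bp before its end with WT and ΔHMG-SOX9. With ΔTA-SOX9 the domain ran 257 bp past it. Between 2.22% and 3.14% of the culture domains at a stop codon ended within 10 bp of one in any list. The folds of these 4 domains were close to each other, between 3.15 without DOX and 3.61 with ΔHMG-SOX9. With WT SOX9 the domain covered 98.5% of the coding bases and began 231 bp before the start site, whereas in the other 3 conditions it began inside the gene and covered between 70.5% and 71.7%.

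**Figure D2:**
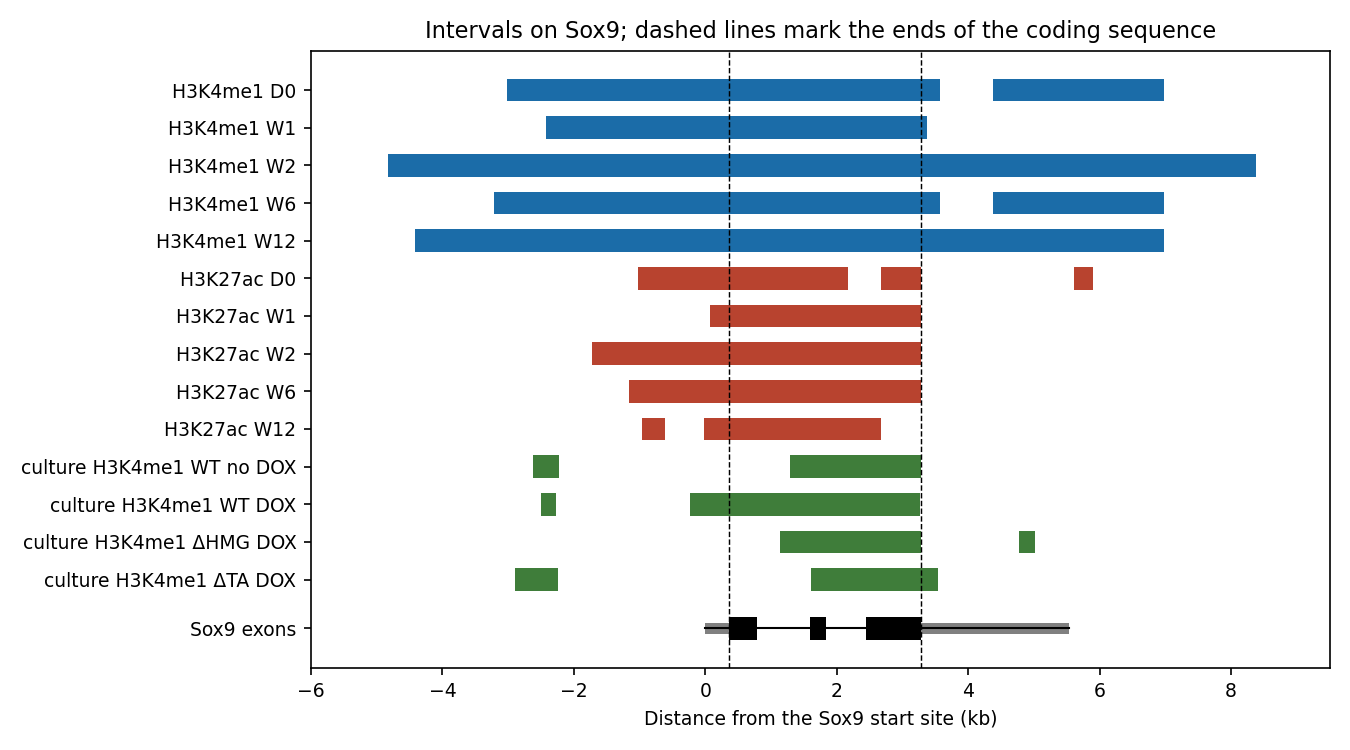
Intervals on the Sox9 gene in the 14 lists. The x axis is the distance from the Sox9 start site in kb, bars are called intervals, and at the bottom exons are drawn with their coding parts in black. The dashed lines are the first and last base of the coding sequence, and the red bars of W1, W2 and W6, the second red bar of D0 and the green bars of no DOX, WT and ΔHMG end at or within 23 bp of the right one.

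Upstream of the coding sequence, which is outside the transgene, the 1 kb before the *Sox9* start site was covered fully by H3K27ac at D0, W2 and W6 and in part (37.0%) at W12. At W12 a separate peak off the coding sequence, within 2500 bp of the start site, had 6.38-fold. At W1 the 1 kb was not covered at all, since the W1 peak began 71 bp after the start site. The W1 list is the shallowest, with a background of 0.299 reads against 0.412 to 0.677 in the other H3K27ac lists, and the part of depth in this was not tested. H3K4me1 covered that 1 kb and the whole coding sequence at all 5 time points. The H3K4me1 domain on the gene measured 6600, 5800, 13200, 6800 and 11400 bp from D0 to W12. It reached 5090 bp past the stop codon at W2 and 3690 bp at W12, and no more than 290 bp in the other lists, of which D0 and W6 had a separate domain over the 3′ end of the gene.

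Across the window, H3K4me1 covered more bases at W2 than at any other time point. It covered 26.1%, 22.8%, 34.7%, 29.2% and 25.3% of the window from D0 to W12, while its cover of the genome stayed between 9.67% and 11.4% and was highest at D0. The desert between *Sox9* and *Slc39a11* was covered to 48.0% at D0 and 48.4% at W1, to 62.9% at W2, and to 45.1% and 44.9% at W6 and W12. The 1 Mb upstream was covered to 14.8%, 8.80%, 22.0%, 18.7% and 12.9% in the same order. Downstream was thus more covered than upstream at each of the 5 time points, and at W1 the upstream side was below the genome's 9.67%.

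H3K27ac covered 1.85%, 2.96%, 3.91%, 3.49% and 1.90% of the window in the same order, against 1.0%, 1.08%, 1.18%, 1.12% and 0.847% of the genome. Between *Sox9* and *Slc39a11* it went from 3.09% without DOX to 5.48% in W1 cells and 7.17% in W2 cells, with 4.20% in W6 and 3.25% in W12 cells. In *Slc39a11* and beyond, the highest value came at W6 (6.72%), after 2.61% at D0, 5.25% at W1 and 5.54% at W2, with 2.78% at W12. Upstream it stayed between 0.261% (W1) and 1.23% (W2). W12 lay near D0 in all 3 parts of the window, and W12 cells came from grafts.

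**Figure D3:**
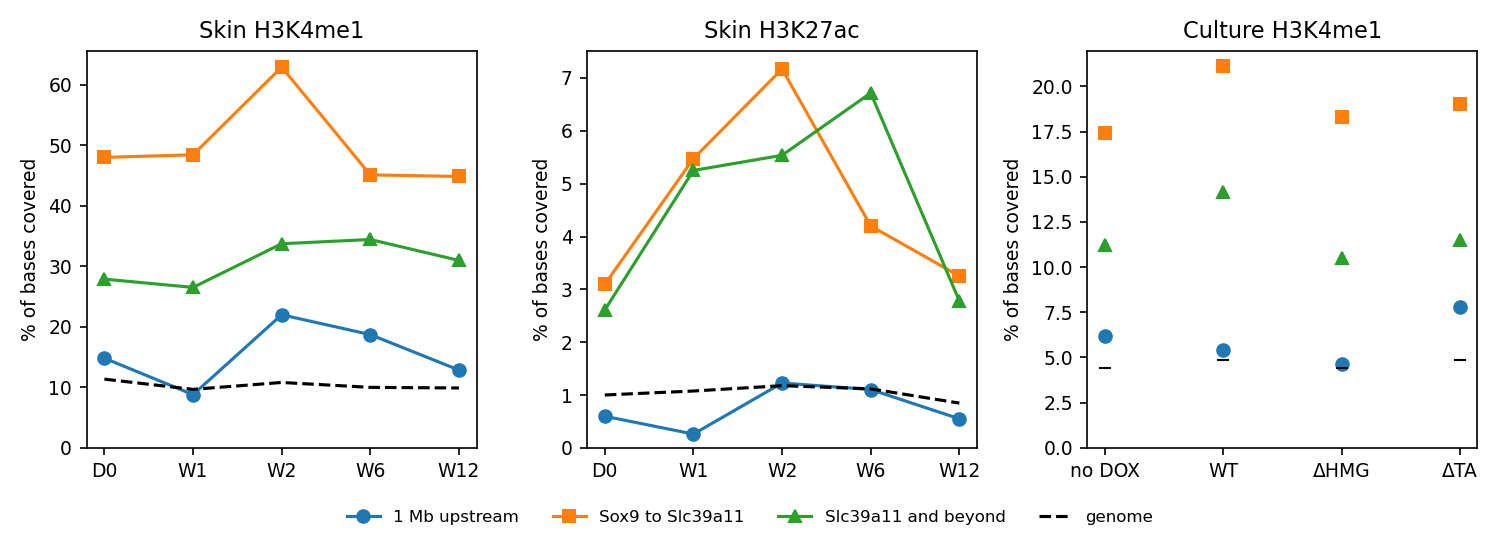
Share of bases covered by called intervals, in percent (y axis), for each list (x axis) in 3 parts of the Sox9 window and in the genome (dashed line in skin, short bar in culture). Skin H3K4me1 and H3K27ac between Sox9 and Slc39a11 are highest at W2, at 62.9% and 7.17%, and culture H3K4me1 there is highest with WT SOX9, at 21.1%.

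Joined over the 5 time points, distal H3K4me1 formed 137 regions, of which 47 were covered in all 5 lists and 51 in 1 list. The 47 were spread unevenly: 16 of 74 upstream, 18 of 31 between *Sox9* and *Slc39a11*, and 13 of 32 beyond. The 51 comprised 28 at W2, 11 at W6, 9 at D0, 3 at W12 and none at W1. Domains found in 1 list alone were 8.11%, 0%, 24.1%, 9.57% and 3.0% of each list from D0 to W12. In the genome they were 17.3%, 1.33%, 13.4%, 6.24% and 5.71%. Domains found in every list were 55.9%, 81.4%, 45.7%, 52.2% and 67.0%, against 44.8%, 62.2%, 56.3%, 52.8% and 58.9% in the genome. Counting intervals were not taken for these per-list shares here. The widest single domain of the window was 27000 bp wide without DOX, and 53000, 48600, 50400 and 47200 bp wide from W1 to W12. All lay over *2610035D17Rik* except that of W6, which lay over the 3′ part of *Slc39a11*.

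Most D0 domains were still called later. Of 111 distal H3K4me1 domains at D0, 62 were called at each of the 4 later time points, against 44.8% of all distal D0 domains in the genome (62 of 111 is 55.9%, interval 46.1 to 65.3%). At W1, 40 of the 111 were not called (36.0%, interval 27.1 to 45.7%), close to the genome's 33.5%. At W2 only 19 were missing (17.1%, 10.6 to 25.4%), where 39.1% of distal domains were missing in the genome. At W6 14 were missing (12.6%, 7.07 to 20.3%), against 33.3%, and at W12 31 (27.9%, 19.8 to 37.2%), against 37.6%. The window thus kept a larger share of its D0 domains than the genome at W2, W6 and W12, but not at W1. The genome's share lay outside the counting interval at each of W2, W6 and W12. H3K4me1 also covered more of the window than of the genome (34.7% against 10.8% at W2). Distal D0 domains were wider in the window (median 2600 bp against 2000 bp). The part of cover and width in these shares was not tested.

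H3K4me1 domains that D0 lacked were 1 of 70 at W1 (1.43%, interval 0.0362 to 7.70%), against 7.74% in the genome. At W2 they were 38 of 116 (32.8%, 24.3 to 42.1%), against 25.5%, at W6 24 of 115 (20.9%, 13.9 to 29.4%), against 21.3%, and at W12 19 of 100 (19.0%, 11.8 to 28.1%), against 19.9%. Against W1, 58 of the 116 domains of W2 were new (50%, 40.6 to 59.4%, genome 29.8%). Lasting gains, absent at D0 and called at W2, W6 and W12, were 7 of the 116 W2 domains (6.03%, 2.46 to 12%), near the genome's 6.23%. They formed 6 regions of 2200 to 4200 bp, none of them called at W1, and 5 of the 6 lay upstream, between 310 kb and 716 kb from *Sox9*. The sixth lay in *Slc39a11*, 658 kb downstream. The 9 regions of D0 alone were narrow, 800 to 1800 bp, and 8 of them were upstream.

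For H3K27ac, distal peaks missing from a later list were 15 of 29 D0 peaks at W1 (51.7%, interval 32.5 to 70.6%, genome 48.8%), 8 at W2 (27.6%, 12.7 to 47.2%, genome 52.1%), 13 at W6 (44.8%, 26.5 to 64.3%, genome 54.2%) and 16 at W12 (55.2%, 35.7 to 73.6%, genome 65.1%). Only at W2 did the genome's share lie outside the counting interval. New against D0 were 32 of 47 peaks at W1 (68.1%, 52.9 to 80.9%), against 54.7% in the genome, and 32 of 50 at W2 (64.0%, 49.2 to 77.1%), where the genome's share was again 54.7%. At W6 33 of 47 were new (70.2%, 55.1 to 82.7%), against 53.3%, and at W12 21 of 34 (61.8%, 43.6 to 77.8%), against 71.8%. Of these 4 shares that of W6 alone left the genome's value outside its interval.

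**Figure D4:**
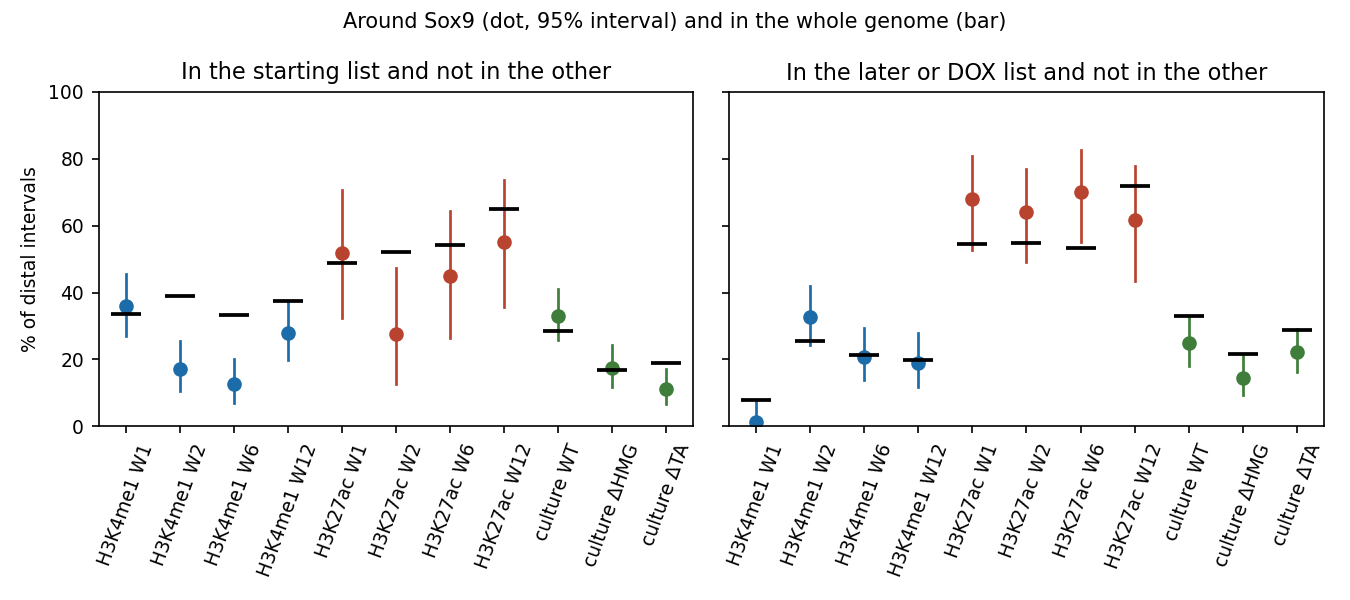
Share of distal intervals, in percent (y axis), that a list had and its counterpart lacked, for skin against D0 and culture against WT without DOX (x axis). Dots are the Sox9 window with exact 95% intervals that cover counting error only, and black bars are all distal intervals of the genome. The dots for H3K4me1 lost at W2 (17.1%) and W6 (12.6%) lie below their bars of 39.1% and 33.3%.

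Of the 105 distal H3K27ac regions, 67 were called at 1 time point (63.8%, interval 53.9 to 73.0%, against 62.9% of 47269 such regions in the genome) and 25 at 3 or more (23.8%, 16.0 to 33.1%, against 23.1%). The window was therefore close to the genome in how long a region stayed called. Regions of 1 time point were most frequent in the W1 list (22) and least in that of D0 (5), with 16, 15 and 9 in W2, W6 and W12. Distal peaks found in 1 list alone were 17.2%, 46.8%, 32.0%, 31.9% and 26.5% of each list from D0 to W12. In the genome these shares were 29.2%, 28.8%, 23.2%, 20.2% and 53.9%, and counting intervals were not taken for them. An H3K4me1 domain of D0 touched 96 of the 105 regions (91.4%, 84.4 to 96.0%), against 78.6% in the genome. Of those called at 3 or more time points it touched 25 of 25 (86.3 to 100%), against 97.7%, and of those that lacked H3K27ac at D0 and had it at W2 it touched 28 of 29 (96.6%, 82.2 to 99.9%), against 87.8%. The genome's share lay outside the interval for all 105 regions alone. H3K4me1 at D0 covered 26.1% of the window against 11.4% of the genome, and the part of this in these shares was not tested.

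Lasting H3K27ac gains were 6 of the 50 distal W2 peaks (12%, interval 4.53 to 24.3%), against 8.13% in the genome, and with intervals less than 1000 bp apart joined they were 3 of 41. They lay in 6 regions, and 3 of these were not called at W1. The closest to *Sox9*, 14.6 kb upstream, was not called at D0 and W1 and stood at 10.5-fold (14 reads), 8.95-fold (14 reads) and 6.38-fold (8 reads) in the W2, W6 and W12 lists. The region 435 kb upstream, also absent at D0 and W1, had 4.91, 8.95 and 5.67-fold in these lists. That 274.5 kb downstream, in *2610035D17Rik*, had 5.61-fold, 4.77-fold and 6.38-fold at the same time points. The last of the 4, 492 kb downstream in *Slc39a11*, was called from W1 on with 5.39, 9.12, 5.37 and 3.54-fold. All 4 were fully covered by H3K4me1 at D0 already, and 3 of them were covered to at least 29.2% in every culture list. The remaining 2 W2 peaks, 324 kb and 950 kb downstream, were absent at D0 and called at W1. They stood in regions where another peak was called at D0.

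Upstream of *Sox9*, the regions called at 3 or more time points included 4 that lay between 120 kb and 167 kb away. The region at 162 kb was called at all 5 time points, with 8.0, 4.62, 7.72, 10.7 and 5.67-fold from D0 to W12. That at 149.8 kb was too, with 6.0, 6.16, 10.5, 8.95 and 7.09-fold. Each fold is that of the best-ranked peak in the joined region, so the summit can differ between lists. At 149.8 kb the D0 summit was at 112633791 and the later summits lay between 112631375 and 112631735. At 120 kb the peak was missing at W1 alone and measured 6.66-fold without DOX (9 reads) and 15.4-fold (21 reads), 10.1-fold (16 reads) and 7.79-fold (10 reads) in the W2, W6 and W12 lists, and its width went from 289 bp at D0 to 1793 bp at W2. The region at 166.6 kb went the other way, with 11.3-fold at D0, 5.43-fold at W2 and 4.96-fold at W12, and was not called at W1 and W6. A region 641 kb upstream was called at D0, W1 and W2 alone, at 4.67, 3.85 and 4.91-fold.

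Between *Sox9* and *Slc39a11*, *2610035D17Rik*, a 158 kb non-coding gene, had 6, 20, 12, 11 and 8 of the 13, 26, 25, 15 and 11 distal H3K27ac peaks from D0 to W12, and 6.10%, 13.3%, 13.6%, 10.6% and 8.49% of its body was covered. Of its regions called at all 5 time points, that 321 kb from *Sox9* had 9.33, 6.93, 16.1, 11.9 and 15.6-fold in time order, and the peaks there widened from 1610 bp in all at D0 to 6156 bp at W2. Its best-ranked summit was at 113103510 at D0 and 113103496 at W1, and at 113101533, 113101377 and 113101420 from W2 to W12. The folds at 321 kb thus do not follow 1 summit over time. The other region of this gene called at all 5, at 410 kb, had 4.67, 8.47, 9.12, 9.54 and 5.67-fold. Of the others in this gene that were called at 3 time points, that at 279 kb was called at D0, W2 and W12 with 3.33 to 5.67-fold and that at 293 kb at W1, W2 and W12 with 5.39 to 10.6-fold. Outside the gene, the region 122 kb downstream of *Sox9* was called at D0, W2 and W6 with 4.67, 8.42 and 5.96-fold, and that at 433 kb at D0, W1 and W12 with 6.0, 5.39 and 4.25-fold.

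A run of 6 regions called at 3 or more time points lay in the 3′ introns of *Slc39a11*, 479 kb to 515 kb from *Sox9*. The one at 503 kb had 4.0-fold without DOX (5 reads), then 18.5-fold (23 reads), 11.9-fold (16 reads), 15.5-fold (25 reads) and 5.67-fold (7 reads) from W1 to W12, and its peaks measured 328 bp at D0 and 2991 to 3922 bp from W1 to W6. At 479 kb the values were 9.33, 13.1, 11.9, 14.3 and 5.67-fold. Those at 495 kb and 515 kb were called at W1, W2 and W6 alone, and that at 490 kb at all time points but W12. The 50.8 kb H3K4me1 region that spans this run was covered to 64.2%, 99.6%, 95.7%, 99.2% and 87.4% from D0 to W12, and its H3K27ac cover was 3.68%, 29.1%, 22.3%, 24.6% and 5.47%. D0 and W12 had the least of both marks there.

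Further from *Sox9*, the region at 778 kb, which reaches an exon of *Slc39a11*, had 12.7, 16.2, 15.4, 13.7 and 5.67-fold from D0 to W12. In *Cdc42ep4*, at 951 kb, the folds were 6.66, 5.39, 8.42, 5.96 and 3.54. The region at 552 kb was called from D0 to W6 with 3.85 to 8.66-fold. A pair at 984 kb and 985 kb was each called at 3 time points, with 11.3-fold at D0 the highest value of the first.

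**Figure D5:**
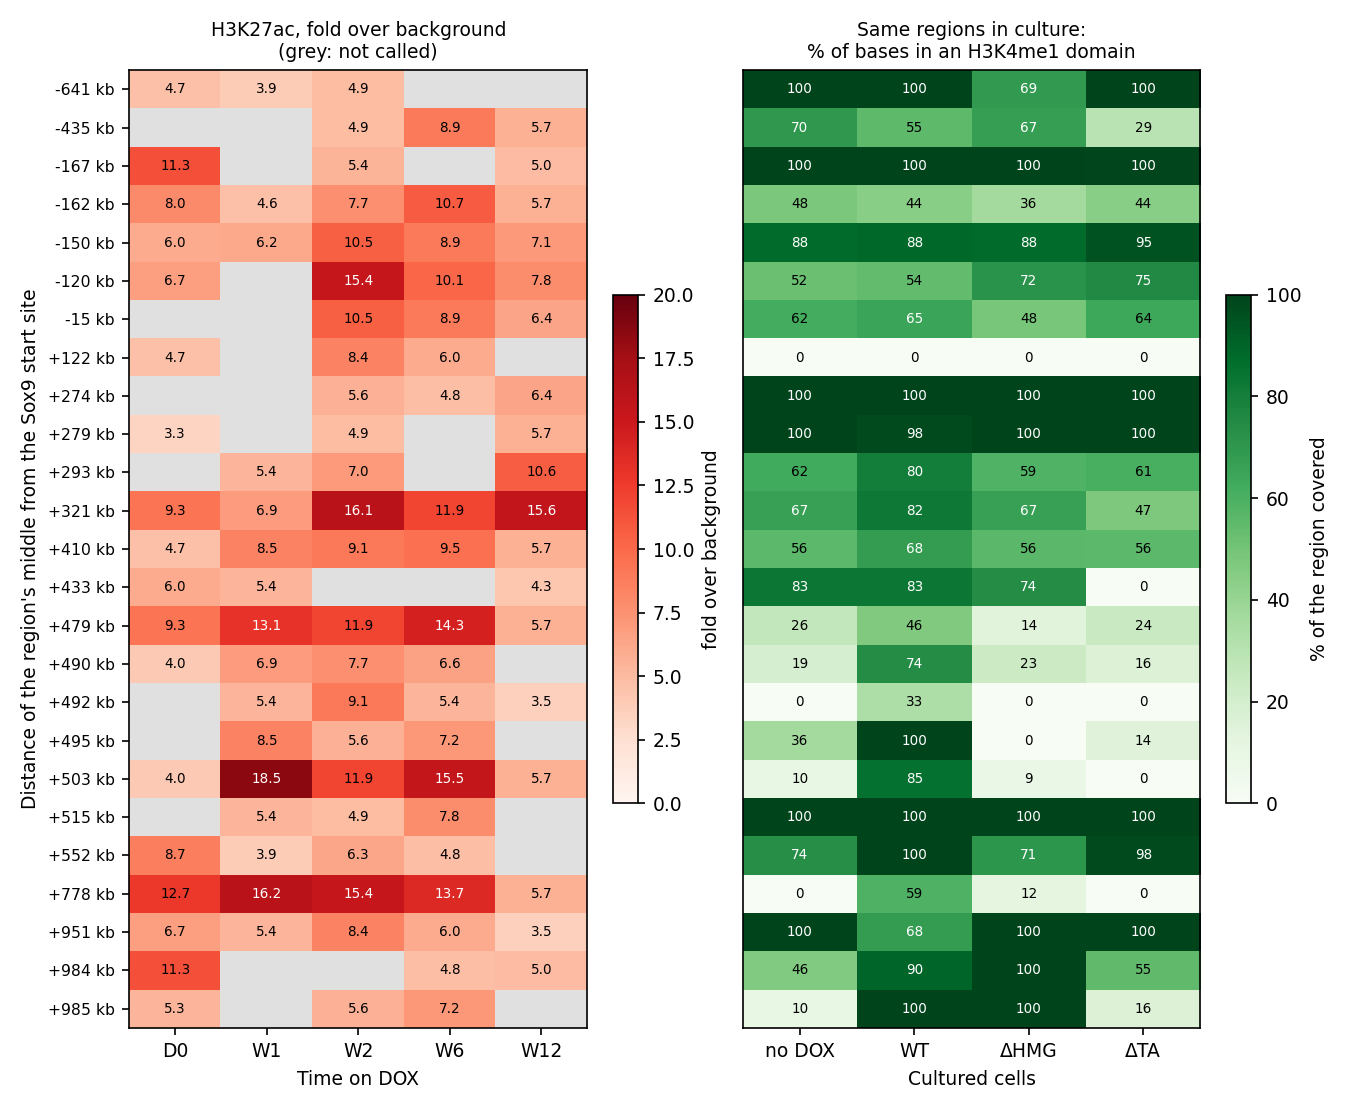
The 25 distal H3K27ac regions called at 3 or more time points, in order along the chromosome (y axis, distance from the Sox9 start site). Left, fold over background of the best-ranked peak in each region at each time on DOX, grey where not called. Right, the percentage of each region covered by H3K4me1 domains in 4 culture conditions. The region at 503 kb goes from 4.0-fold at D0 to 18.5-fold at W1, and in culture is covered to 85.4% with WT SOX9 and to at most 9.91% in the other conditions.

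Peaks of D0 that no later list had were 5 of 29 (17.2%, interval 5.85 to 35.8%), where the genome had 29.2%. They were weak, from 3.33 to 4.67-fold and 4 to 6 reads. The strongest lay 5.75 kb downstream of the *Sox9* start site, just past the end of the gene, and was 282 bp wide. Others lay 138 kb, 409 kb, 991 kb and 992 kb downstream, and all 5 were fully covered by H3K4me1 at D0 and again at W2, W6 and W12.

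In cultured cells the same locus was compared between WT SOX9 and the mutants. Without DOX 154 distal domains were called. Of these, 51 were missing with WT SOX9 (33.1%, interval 25.8 to 41.2%, genome 28.4%), 27 with ΔHMG-SOX9 (17.5%, 11.9 to 24.5%, genome 16.7%) and 17 with ΔTA-SOX9 (11%, 6.56 to 17.1%, genome 18.8%). Of the 51, 28 were kept with both mutants, and a further 14 with ΔTA alone. These counts were not taken over the genome, so they do not show whether the locus differs from it. Domains gained with WT SOX9 were 34 of 136 (25%, 18.0 to 33.1%, genome 33.1%), with ΔHMG-SOX9 21 of 144 (14.6%, 9.26 to 21.4%, genome 21.5%) and with ΔTA-SOX9 39 of 176 (22.2%, 16.3 to 29.0%, genome 29%). The share gained was below that of the genome in each condition, with the genome's value at the upper edge of the counting interval.

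Of the 34 gained with WT SOX9, 22 were called with neither mutant (64.7%, 46.5 to 80.3%), against 72.3% in the genome. The 5 best-scoring of these 22 lay 745 kb, 708 kb, 686 kb and 962 kb upstream and 480 kb downstream, with folds of 4.54, 4.46, 3.97, 4.20 and 2.17. The last, 1651 bp inside *Slc39a11*, was the one of the 5 that carried H3K27ac in skin, at W1, W2 and W6, and was fully covered by skin H3K4me1 at all time points. The domains 745 kb and 962 kb upstream were not covered by skin H3K4me1 at any time point.

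In culture, 11 of the 25 regions called at 3 or more time points in skin were covered more with WT SOX9 than in any other condition (44%, interval 24.4 to 65.1%), against 27.8% of 10938 such regions in the genome, which lies within the interval. Without DOX this held for 2 regions (8%, genome 17.3%), with ΔHMG-SOX9 for 1 (4%, genome 11.3%) and with ΔTA-SOX9 for 2 (8%, genome 16.5%), each again with the genome's share inside the interval (0.984 to 26%, 0.101 to 20.4% and 0.984 to 26%). Median cover of the 25 was 61.7% without DOX, 82.2% with WT, 67.2% with ΔHMG and 54.6% with ΔTA-SOX9, and in the genome it was 59.5%, 65.8%, 56.1% and 57.4%.

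In the run of 6 regions in *Slc39a11*, 5 were covered most with WT SOX9. At 503 kb the region was covered to 9.91% without DOX, 85.4% with WT, 8.74% with ΔHMG and 0% with ΔTA-SOX9. At 490 kb the values were 19.1%, 74.3%, 22.7% and 16.0%, at 495 kb 36.3%, 100%, 0% and 14.5%, at 492 kb 0%, 33.3%, 0% and 0%, and at 479 kb 26.3%, 46.5%, 13.7% and 24.5%. The region at 515 kb was covered fully in all 4 conditions. Over the whole 50.8 kb the culture domains covered 18.2%, 43.6%, 12% and 16.7%. A similar order held at 778 kb, with 0%, 59.0%, 12.2% and 0%. Of the 7 regions upstream of *Sox9*, 1 was covered most with WT SOX9, that at 14.6 kb, with 61.7%, 65%, 48.5% and 63.9%. At 162 kb cover was 47.7%, 43.9%, 36.4% and 43.9%, and at 120 kb it was 52.0%, 54.2%, 71.5% and 75.5%. *2610035D17Rik* was covered to 28.1%, 43.1%, 34.4% and 29.1% of its body, while domains covered 4.39%, 4.88%, 4.41% and 4.89% of the genome.

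Start sites in the window gave a further reading of H3K27ac outside the transgene. *Fam104a* and *D11Wsu47e*, which share a divergent start region, had 35.3-fold at D0 and 9.21 to 28.0-fold later. *2610035D17Rik* had a peak at its start in every list, from 11.9-fold (W2) to 20.7-fold (D0), as did *Cog1* (6.66 to 11.3-fold), *Cdc42ep4* (4.96 to 22.1-fold) and *Cpsf4l* (3.33 to 12.5-fold). *Slc39a11* had one at D0, W2 and W6 alone, with 6.0, 7.02 and 9.54-fold, and *Sdk2* at W1 and W2 with 3.85 and 4.91-fold. *4732490B19Rik* had one from D0 to W6 and none at W12. No H3K27ac peak was called at the starts of *Sstr2*, *Gm11674*, *Gm11680*, *Gm11681* and *4933434M16Rik*.

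Genes whose cover by the 14 lists was most like that of *Sox9*, with 10 kb on both sides and without intervals on its coding sequence, were *Tmem86b*, *Wfdc9* and *Lipf*. Their percentages of covered bases differed from those of *Sox9* by 1.17, 1.4 and 1.49 points on average over the 14 lists, where the median of 21929 genes was 6.43 points. All are near 0 for H3K27ac, as was *Sox9* once those intervals were set aside (0% to 1.36%), so that the likeness is one of little cover. With them, the cover of *Sox9* by H3K27ac was between 11.9% and 19.6%.

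A list of 20 genes, of SOX family partners and of hair follicle or cartilage genes, with Hedgehog pathway genes among them, was read in the same way. H3K27ac within 2500 bp of a start site was called for 8, 9, 11, 8 and 6 of the 20 from D0 to W12 (40%, 45%, 55%, 40% and 30%), against 46%, 44.8%, 45.6%, 49.6% and 38.7% of 21938 protein-coding genes. With 20 genes the counting interval held the share of all genes at each time point, and at W2 it ran from 31.5 to 76.9%. *Gli2*, a Hedgehog effector, had none at D0 and W12 and 4.62, 10.5 and 7.16-fold at W1, W2 and W6, and *Gli1*, a Hedgehog target, had 4.0, 6.93, 10.5, 11.3 and 4.96-fold from D0 to W12. *Lhx2* and *Tcf7l1*, regulators of hair follicle stem cells, had one at W2 alone, with 4.91-fold each. *Lhx2* and 3 other genes of the list (*Nfatc1*, *Krt15* and *Lgr5*) are also among the hair follicle stem cell markers, 4 of 5 of which had a peak at W2, and the part of such cells in these values was not tested. *Sox6*, a partner of SOX9 in cartilage, had 13.3, 13.9 and 6.32-fold from D0 to W2, and none after. The cartilage targets *Acan*, *Col2a1*, *Col9a1* and *Col11a2* had none in any list. H3K4me1 cover of the gene with 10 kb on both sides was above D0 for 6 of the 20 genes and below it for 12 at W1, above for 16 and below for 3 at W2, above for 11 and below for 8 at W6, and above for 12 and below for 6 at W12. Of all protein-coding genes, 4128, 6331, 5692 and 5423 were above D0 and 12926, 11086, 11723 and 12045 below it at these time points.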

How the data were processed

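The series holds 38 MINT-ChIP samples in 16 groups, from which 14 deposited lists of intervals were used. According to the study's methods and the submitters' processing notes, the authors aligned reads to mm10 with Bowtie2 (2.2.9), merged replicates with SAMtools (1.9), and called H3K27ac peaks with MACS2 (2.1.1) and broad H3K4me1 domains with epic2. Settings of the callers are not given in the sources used here. The deposited H3K4me1 lists of skin give a p-value per domain, at most 0.0496. The deposited H3K27ac and culture lists give a score, a fold over local background (a linear ratio) and the −log10 of p and q, with largest q-values of 0.0498 and 0.0982. Culture lists have the layout of MACS2 broad peaks, so how they were called is unclear, and their conditions were read from the list names. Total H3 and 14 barcode files were not used here.

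Start sites (77161) came from the basic set of GENCODE M21, on the same build. Distal meant over 2500 bp from all of them, and an interval was lost or gained when the other list had none overlapping by 1 bp. Skin H3K4me1 domains were ranked by p-value and width, other lists by score. H3K27ac folds fell on steps of whole reads for 83.5% to 96.1% of peaks (within 0.02 of a whole number), which gave the pile-ups. Bases were read from GRCm38.p6 with pysam (0.24.0). Overlap functions were tested on simulated data. Exact 95% intervals cover counting error only, since reads without molecular identifiers are not independent molecules.

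The window, the named regions and the gene lists were chosen with earlier results of these data known. Named by rule were the genes of the window, distal H3K27ac regions called at 3 or more time points or lastingly gained, the 5 best D0-only peaks, the 5 best culture domains gained with WT SOX9 that both mutants lacked, the widest H3K4me1 domain per time point and the 3 genes of most similar cover. Alternatives were another overlap rule, the better-ranked part of each list, lists of equal length, joined intervals, a window of 500 kb, the gene desert alone, and distal limits of 1000 bp and 10000 bp.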

Additional observations from a re-analysis of the deposited data

How the results depend on the processing

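Each list pools its replicates, so no replicate could be left out and no spread is known. No paired analysis was possible because the lists pool the replicates and the results come from no test. Depth is known for H3K27ac alone and was lowest at W1. For 8 results under 8 alternatives, 60 of 64 values stayed within the counting interval of the reported share or within 1.5 times the reported count. With the better-ranked 50% of each list, the share of culture domains gained with WT SOX9 was 33.3% in place of 25%. The share lost was 45.6% in place of 33.1%. With the same cut, D0 domains of H3K4me1 called at every later time point numbered 31 of 51 in place of 62 of 111. With intervals less than 1000 bp apart joined, H3K27ac peaks absent at D0 and called at W2, W6 and W12 numbered 3 in place of 6. The part of the shorter lists in the first 3 changes was not tested. The last follows from joining, which merges gained with earlier peaks.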
